A study of Rattus norvegicus with 6 samples.

Results

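Ndfip1 and Ndfip2 are the 2 adaptor genes of the Nedd4 family of ubiquitin ligases, and each was read by 1 probe on the rat arrays described here. The members were all probes, controls aside, whose accession is a RefSeq mRNA of rat Ndfip1 or Ndfip2. These were 2 of 39886 probes, or 2 of the 38 genes that could be named among the mRNA probes. Both genes were chosen by their signals in the comparison of DEHP with control testis, where earlier work on these files had shown them higher, so those values are given below as a description, with no test of their own. The study asked how DEHP alters piRNA signals in the rat testis, and most of the array is given to piRNA probes (39727), while 67 probes are named by an mRNA accession.

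All rats were male Sprague-Dawley animals aged 11 weeks at collection. The control group is 3 rats given corn oil, and the DEHP group is 3 rats given di(2-ethylhexyl) phthalate, a plasticizer, at 1000 mg/kg/day in corn oil. Both were dosed by gavage for 28 days, and RNA from 1 testis of each rat was hybridised to an array of its own, read in 1 colour. The series' design text lists the treatments in the opposite order to the groups. Every direction below therefore rests on the sample labels. Control 1 was scanned with the 3 DEHP arrays, called the first scan here, and controls 2 and 3 in another, going by identifiers that the file headers give. In bulk testis tissue, fewer cells of a type and less RNA per cell cannot be told apart. Of 28 marker genes listed for testicular cell types, 1 has a probe, that of Lhcgr, the luteinizing hormone receptor of Leydig cells, and it was well above background on all 6 arrays. The makeup of the tissue could not be checked further.

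Ndfip1 and Ndfip2 encode small membrane proteins of the Golgi apparatus and endosomes. Their PY motifs, short proline-tyrosine stretches, bind the WW domains of Nedd4-family ligases such as Nedd4, Nedd4l and Itch. Binding brings the ligase to membranes, relieves its inhibited state and lets it attach ubiquitin to chosen proteins, many of them transporters, receptors and transcription factors. In mice, loss of Ndfip1 leaves T cells overactive through Itch and JunB, and in neurons Ndfip1 is known for the control of the metal transporter DMT1. None of the 9 Nedd4-family ligases listed for this report has a probe on the array. The same holds for 12 listed partners and substrates and for 9 genes of the core ubiquitin machinery. The adaptors could therefore be read only without their ligases.

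The start regions of both genes are shown because both signals were higher in DEHP testis, as given below. They are RefSeq windows of the GRCr8 build, on the plus strand, from 250 bases before to 50 bases after an annotated start. Capitals mark every match, on either strand, to 5 motifs: GGGCGG (the GC box), CCAAT (the box of that name), CACGTG (the E box), AGGTCA (a core of nuclear receptor sites) and TGACG (a core of CRE sites). No matches of different motifs overlap.
Ndfip1, chr18:30516775-30517074: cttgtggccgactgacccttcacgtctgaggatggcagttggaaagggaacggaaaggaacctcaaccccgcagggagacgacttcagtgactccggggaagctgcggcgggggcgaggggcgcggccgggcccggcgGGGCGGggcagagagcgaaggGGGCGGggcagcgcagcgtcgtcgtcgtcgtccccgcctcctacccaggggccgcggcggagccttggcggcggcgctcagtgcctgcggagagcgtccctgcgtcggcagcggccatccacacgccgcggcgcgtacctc
Ndfip2, chr15:88446682-88446981: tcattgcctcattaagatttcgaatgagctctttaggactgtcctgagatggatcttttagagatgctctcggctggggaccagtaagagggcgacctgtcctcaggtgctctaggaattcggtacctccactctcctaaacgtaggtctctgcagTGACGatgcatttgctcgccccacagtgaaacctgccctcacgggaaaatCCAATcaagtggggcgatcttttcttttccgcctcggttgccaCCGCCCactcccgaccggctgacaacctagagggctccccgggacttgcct
The Ndfip1 window holds 2 GC boxes on the plus strand and none of the other 4 motifs. The Ndfip2 window holds 1 GC box on the minus strand, 1 CCAAT and 1 CRE core. Among 33469 promoter windows of the same length, 33.1% hold a GC box, 37.5% a CCAAT, 21.2% a CRE core, 16.2% a nuclear receptor core and 6.42% an E box. The GC box is thus the motif the windows share, and it is common. The windows differ in base composition. That of Ndfip1 has 73.3% G and C and 40 CpG pairs, and that of Ndfip2 has 54.7% and 15, where the median window has 51.7% and 7. The Ndfip1 gene spans bases 30516931 to 30567199 of chromosome 18, and its window lies at the start of the gene. The Ndfip2 gene spans bases 88394548 to 88500881 of chromosome 15. Its window is set on a start 52384 bases inside that span, so the most upstream annotated start is not covered. Where the probes lie within the transcripts was not used here, and no isoform can be told apart.

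The Ndfip1 probe (A_44_P166216, accession NM_001013059) was bright in every testis. Its mean background-subtracted signal over the spots was 1175, 1422 and 1074 in controls 1 to 3 and 2545, 2836 and 2241 in DEHP testes 1 to 3. Every DEHP testis was brighter than every control. Before any scaling of the arrays, the group means were 1224 ± 179 and 2541 ± 297 (SD, n = 3), a ratio of 2.08.

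To compare arrays, each was then set on the log2 scale relative to the 75th percentile of its own probes, array controls left out. On this scale Ndfip1 stood at 4.46, 4.10 and 4.18 in the controls and at 5.17, 5.09 and 4.89 in the DEHP testes. The lowest DEHP testis, replicate 3, lay 0.43 above the highest control, replicate 1, so the groups did not overlap. The means were 4.25 ± 0.19 and 5.05 ± 0.14 (SD, n = 3), a difference of 0.80, or 1.75-fold. The 9 pairs of 1 DEHP and 1 control testis differed by 0.43 to 1.07. The difference is smaller than that of the unscaled signals because the 75th percentile itself was 6.00 ± 0.33 in controls and 6.25 ± 0.12 in DEHP testes.

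The Ndfip2 probe (A_44_P1047638, accession NM_001108390) followed the same course. Its mean signal was 793, 1055 and 706 in controls 1 to 3 and 1740, 1971 and 1561 in DEHP testes 1 to 3. The group means were 851 ± 182 and 1757 ± 205 (SD, n = 3), a ratio of 2.06. Again no control reached the dimmest DEHP testis.

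Relative to the 75th percentile, Ndfip2 stood at 3.89, 3.67 and 3.57 in the controls and at 4.62, 4.56 and 4.37 in the DEHP testes. The gap between the groups was 0.48. The means were 3.71 ± 0.17 and 4.52 ± 0.13 (SD, n = 3), which differ by 0.81, also 1.75-fold. Pairs of 1 DEHP and 1 control testis differed by 0.48 to 1.05. In both genes control 1 was the highest control and DEHP 3 the lowest DEHP testis. Signals of different probes cannot be set against each other on an array, so which of the 2 transcripts was more abundant is not known from these data.

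**Figure D1:**
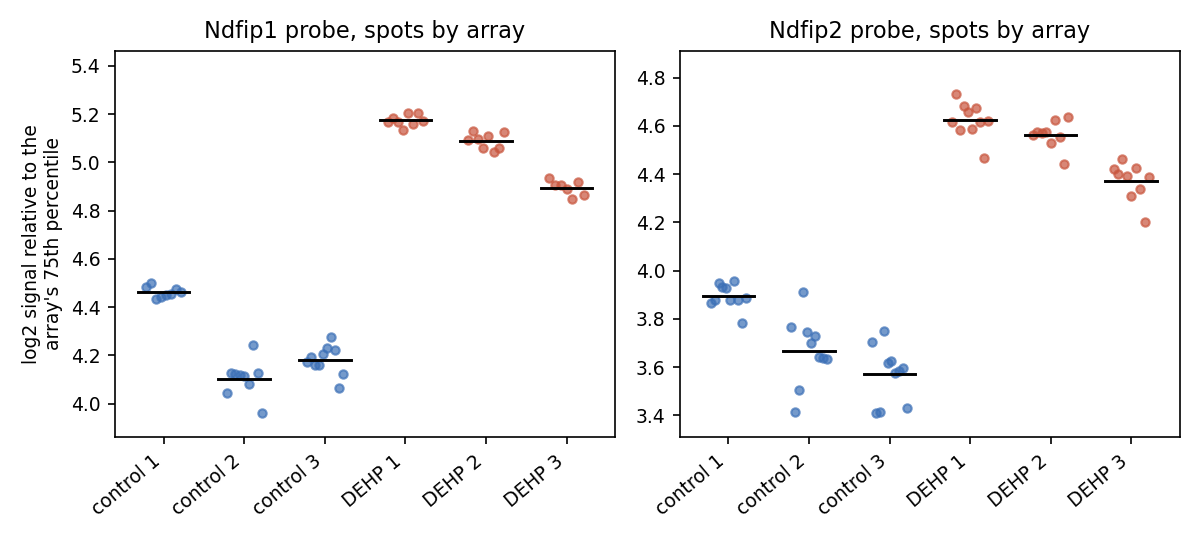
Log2 signal of each spot of the Ndfip1 probe (left) and the Ndfip2 probe (right) relative to the 75th percentile of its array, for 3 control (blue) and 3 DEHP (red) testes. Each point is 1 spot that was not marked as an outlier, each black line the mean of an array, and both vertical axes span the same range, without a shared zero. All DEHP spots lie above all control spots for both probes.

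Each probe is printed 10 times on an array, which shows the scatter of spots within an array. All 60 spots of each probe were well above background and none was saturated. The spots of Ndfip1 had an SD of 0.02 to 0.07 log2 units within an array, and those of Ndfip2 one of 0.05 to 0.14. The standard error of an array's mean was at most 0.02 for Ndfip1 and 0.04 for Ndfip2. This is well below the SD between arrays given above. Each rat had 1 array, so differences between rats and errors between arrays cannot be told apart. The highest of 27 control spots of Ndfip1 was 4.50 and the lowest of 23 DEHP spots 4.85. For Ndfip2 the highest of 30 control spots was 3.96 and the lowest of 28 DEHP spots 4.20. Spots of 1 array share its RNA and are not replicates of a treatment. The scanner software had marked 10 of the 60 Ndfip1 spots and 2 of the 60 Ndfip2 spots as outliers, and these were left out. With them kept, the differences were 0.80 for Ndfip1 and 0.81 for Ndfip2. With spots above the middle row of the array alone the differences were 0.79 and 0.84, and with those below it 0.84 and 0.79. Below it, Ndfip1 had only 1 to 3 spots on a control array and 1 on each DEHP array.

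The 2 adaptors differed from each other by a similar amount on every array. The gap between their log2 values, which has no meaning as a ratio of transcripts, was -0.57, -0.43 and -0.61 in the controls and -0.55, -0.53 and -0.52 in the DEHP testes. Its means were -0.54 ± 0.09 and -0.53 ± 0.01 (SD, n = 3), so that the difference between DEHP and control testis was larger for Ndfip2 by 0.0043, far less than the SD. The largest departure was control 2, where Ndfip2 stood higher beside Ndfip1 than in the other arrays. Among the controls the gap ranged over 0.17, beside a range of 0.36 for Ndfip1 and 0.32 for Ndfip2, and controls 2 and 3 stood in opposite order in the 2 genes. Within the DEHP group the order was the same, with a range of the gap of 0.03. Much of what the 2 probes share over the 6 arrays is thus the group difference by which they were chosen.

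Of the mRNA probes beside the adaptors, those from the manufacturer's catalogue were mostly higher in DEHP testis, and the custom ones less uniformly so. Of the 23 other catalogue probes that were well above background on at least 3 arrays, 14 were called higher and 0 lower (limma, adjusted p below 0.05 over 23090 probes). None was lower at an unadjusted p below 0.05 either, and 22 of the 23 differences were positive. These calls were lost with the scan of the arrays as a block (0 higher, limma, with 12 of 23 at an unadjusted p below 0.05) and without DEHP 2 (0 higher, with 17 of 23 at an unadjusted p below 0.05), while 5 were left with median centring and 1 without control 3 or DEHP 1. Cdh2 and Fgf2, both among the 14, were kept through the DEHP arrays alone. Of the 19 catalogue probes well above background on all 6 arrays, 12 were called higher. Over all probes tested 4.44% were called higher and 6.26% lower, or 1026 and 1445 probes. That balance depended on the centring: it was 2503 higher and 1142 lower with the percentile over probes detected on all arrays, 298 and 2840 with median centring, 316 and 252 without centring, and 500 and 1098 after normexp background correction. Both adaptor probes were among those called higher, which the choice of these genes had already fixed.

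The median difference was 0.73 over the 23 other catalogue probes, and the same over the 19. It was 0.05 over all probes other than the members. The DEHP values lay above all control values for 17 of the 23 and 14 of the 19, as for both adaptors, against 20.6% of all probes tested. A difference at least as large as that of Ndfip1 or Ndfip2 was seen in 5 of the 19. Of these 5, Pdcd10, a gene of cell death and vessel integrity, had 0.98 and Mex3c, an RNA-binding protein gene, 0.84. Lhcgr had 0.55 and did not pass (limma, adjusted p = 0.0784). Of the 31 custom mRNA probes tested, which hold several probes for a gene, 8 were called higher and 2 lower, with a median of 0.27. Their groups did not overlap for 16 in the direction of the adaptors and for 7 in the other, and 1 of the 31 differed by as much as Ndfip1. Over the 23088 probes other than the members, the groups did not overlap for 4744 and 3905 in these 2 directions. The 2284 piRNA probes in the same 1 of 10 equal bins of probes by mean signal, the brightest, had a median of -0.27, and 11 of them were at least as high as Ndfip1.

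**Figure D2:**
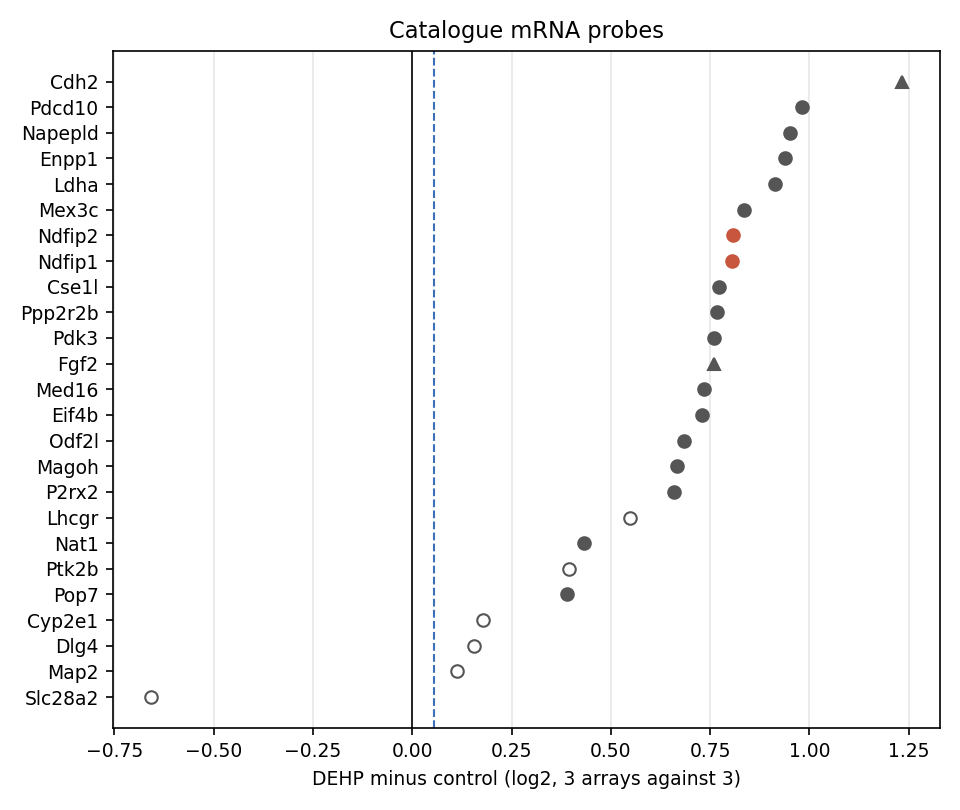
Difference between DEHP and control testis (log2, means of 3 arrays each) for 25 catalogue mRNA probes, with Ndfip1 and Ndfip2 in red. Filled symbols mark probes whose 2 groups do not overlap, open symbols those that do, triangles probes well above background on no control array, whose difference has only a bound (Cdh2 and Fgf2), and the dashed line the median of 0.05 over all other probes. Catalogue probes that lie near the adaptors run from 0.66 to 0.98.

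Set beside the other catalogue probes of the same array, the adaptors differed little between the groups. Relative to the median of those 23 probes, Ndfip1 had log2 values of 2.96, 2.62 and 3.00 in the controls and 3.04, 2.93 and 3.09 in the DEHP testes, and the groups overlapped. The difference was 0.16, less than the SD of 0.21 among controls, and pairs of testes differed by -0.07 to 0.48. Ndfip2 had 2.40, 2.18 and 2.39 in the controls and 2.49, 2.41 and 2.57 in the DEHP testes. Its difference was 0.17 beside an SD of 0.12 among controls and 0.08 among DEHP testes. The lowest DEHP testis lay 0.01 above the highest control, and control 2 was again the lowest. The median of the 23 probes was itself 1.39 ± 0.18 in controls and 2.03 ± 0.20 in DEHP testes (SD, n = 3), a difference of 0.64. These relative differences depended on the processing: after normexp they were 0.34 for both genes with percentile centring, and 0.47 and 0.45 with quantile normalization. Quantile normalization alone gave 0.34 for Ndfip1 and 0.32 for Ndfip2. Cyclic loess gave 0.31 and 0.29, and the authors' deposited log2 values 0.30 and 0.29. With the scan as a block, or within the first scan, they were 0.06 for Ndfip1 and 0.09 for Ndfip2, and without control 2 they were 0.04 and 0.10.

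**Figure D3:**
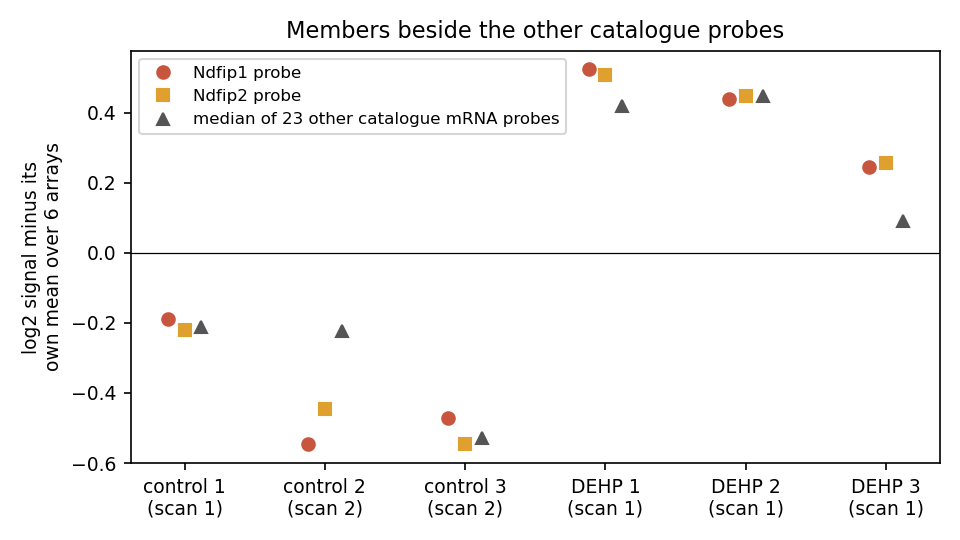
Log2 signal by array for the Ndfip1 probe, the Ndfip2 probe and the median of 23 other catalogue mRNA probes, each relative to the 75th percentile of the array and then minus its own mean over the 6 arrays. All 3 measures lie below 0 in every control and above 0 in every DEHP testis, and the catalogue median parts most from the adaptors in control 2.

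The named genes most like the adaptors were found by the root mean square difference between 2 probes over the 6 arrays, after each probe's own mean was taken off. The rule took the 5 nearest of 32 named genes. Nearest to both was Cse1l, which returns importin alpha from the nucleus, at 0.04 log2 units from Ndfip1 and 0.03 from Ndfip2. Next for both was the translation initiation factor Eif4b, at 0.05 and 0.07. The pyruvate dehydrogenase kinase Pdk3 stood at 0.06 from Ndfip1 and 0.09 from Ndfip2. Fgf2, a growth factor, stood at 0.07 and 0.08, but its probe was not well above background in any control testis. The exon junction gene Magoh, at 0.09, was the last of the 5 for Ndfip1. For Ndfip2, Odf2l, also at 0.09, came just before Pdk3, the last of its 5.

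Ndfip1 and Ndfip2 lay 0.05 from each other. Of 23088 other probes, 4 were as near to Ndfip1 as Ndfip2 was, and 6 were as near to Ndfip2 as Ndfip1 was. Among the 32 named genes these counts were 2 and 1. The median distance of all probes was 0.45. Of all 23088 probes, 33 were as near to Ndfip1 as the last of its 5 genes, and 36 as near to Ndfip2 as the last of its own. They included 5 of 54 mRNA probes and 26 of 22988 piRNA probes for Ndfip1, and 5 and 28 for Ndfip2. The cut-off was the distance of the fifth named gene, so the rule itself set the count of mRNA probes at 5 or more. Their share can therefore not be compared with that of the piRNA probes. The 6 arrays span both groups, and a probe with a like difference between the groups is near by that alone.

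The scan of the arrays went partly with the groups. The first scan holds 1 control and all 3 DEHP arrays. Relative to the 75th percentile, control 1 was the control closest to the DEHP testes in both genes. It lay 0.32 above the mean of the other 2 controls for Ndfip1 and 0.27 above it for Ndfip2. Before scaling, control 2 was the brightest control in both genes, as the signals above show. Control 1 had the lowest 75th percentile (5.74) and the fewest probes well above background (16821, beside 21395 to 23874 on the other arrays). Unscaled log2 values of Ndfip1 were 10.20 in control 1 and 11.31, 11.47 and 11.13 in the DEHP testes. Those of Ndfip2 were 9.63 and 10.76, 10.94 and 10.61. What part the scaling of control 1 had was not tested. Relative to the 75th percentile, the DEHP testes exceeded this 1 control of the first scan by 0.59 for Ndfip1 and 0.63 for Ndfip2. The same values result when the scan is a block in the fit. No probe at all was called higher then (0% of 23090, limma, with 2092 higher at an unadjusted p below 0.05), so neither adaptor was. Both calls were also lost with median centring, and without control 3, DEHP 1 or DEHP 2. Without DEHP 3 the call of Ndfip1 was lost. Calls of higher probes fell over the whole array in these settings, from 1026 of 23090 to 298 with median centring (limma). Removal of control 3 left 103 such calls. Removal of a DEHP array left 97, 25 and 154 for replicates 1 to 3 in turn. These losses were thus not particular to the adaptors.

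Control features of the arrays moved with the groups too. The bright corner spots, which serve to orient the grid, had a median signal of 19360, 45981 and 46965 in controls 1 to 3 and of 10540, 9575 and 10050 in DEHP testes 1 to 3. They were thus lower on every DEHP array, opposite to the adaptors, with control 1 between the others. The median signal of 10 probes for the manufacturer's spike-in RNAs, of which 2 or 3 were well above background on each array, was 5.50 to 7.27 in controls and 9.06 to 9.98 in DEHP testes. The spike-in median was thus higher on every DEHP array, in the same direction as the adaptors. What part the bright corner and spike-in signals had in the differences of Ndfip1 and Ndfip2 was not tested. Negative control spots had medians of 2.81 to 4.52 and 3.39 to 4.10, which overlap. On each array the mean signal of either adaptor was at least 36 times the median local background of its spots.

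Under 15 other ways of processing, both probes were again higher in DEHP testis, by 0.59 to 1.11 for Ndfip1 and by 0.60 to 1.09 for Ndfip2. Among the 15, the replicate block cannot change a difference, since each number holds 1 array of each group. In the authors' deposited log2 values, Ndfip1 stood at 10.27, 10.20 and 9.98 in the controls and at 11.32, 11.36 and 11.04 in the DEHP testes, a difference of 1.09. Ndfip2 stood there at 9.80, 9.77 and 9.42 against 10.81, 10.88 and 10.55, a difference of 1.08. In that table, too, neither gene's groups overlapped, and the 2 differences were nearly equal. Leaving out 1 testis at a time gave 0.73 to 0.91 for Ndfip1 and 0.74 to 0.90 for Ndfip2.

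**Figure D4:**
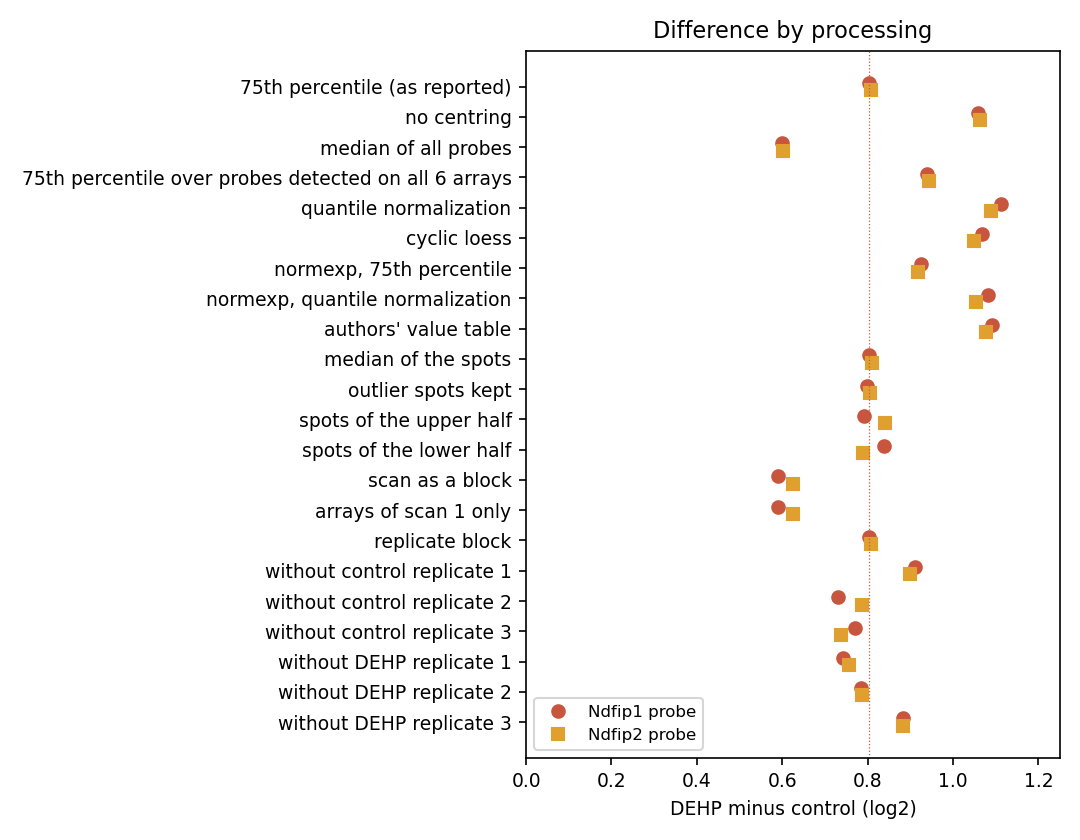
Difference between DEHP and control testis (log2) of the Ndfip1 probe (circles) and the Ndfip2 probe (squares) under the processing used here, at the top, and under each alternative below it. The dotted line marks the 0.80 of Ndfip1. All values are above 0, the lowest of them 0.59 for Ndfip1 within the first scan.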

How the data were processed

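Cy3-labelled cRNA from 6 rat testes was read on one-colour Agilent arrays, as the labels' protocols state. Per the submitters' processing notes and the file headers, the deposited spot intensities (processed signal after background subtraction, median spot and local background signals) and flags (other values, 0 or 1) come from Agilent Feature Extraction 11.0.1.1. The authors' deposited value table was taken as log2, from its values. How it was made was not stated in those sources, and it served only as an alternative.

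Groups follow the sample titles. Control spots and outlier spots were left out, log2 processed signals averaged over the spots of a probe, and each array centred on its 75th percentile. A probe counted as well above background on an array where at least 0.5 of its spots were. Probes well above background on at least 3 of 6 arrays were kept (23090 of 39886). The groups were compared over all of them with limma 3.58.1 in R 4.3.3 (eBayes with trend, Benjamini-Hochberg, threshold 0.05, two-sided), after a test on simulated data. Plots used matplotlib 3.10.9 in Python 3.11.15. Symbols came from RefSeq (GRCr8), which named 61 of 67 mRNA probes and held promoters for both members. The number of arrays limits the precision.

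The members, lists and tests were chosen with earlier results of these data known. Named genes are the members, the 5 genes nearest to each, listed genes with a probe, and Pdcd10 and Mex3c, chosen after their values were seen. Alternatives changed the centring, normalization, background correction, spots, filter, test, scan or replicate block, or left out 1 array. Centring on spike-in probes was not run, since at most 3 of 10 were above background. Protein motifs were not analysed here.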

Additional observations from a re-analysis of the deposited data

How the results depend on the processing

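The differences of both adaptors stayed positive in every setting tried. Those that moved by more than the SD between replicates were, for Ndfip1 and Ndfip2 in turn, 1.06 and 1.06 without centring, 0.60 and 0.60 with median centring, 1.11 and 1.09 with quantile normalization, 1.07 and 1.05 with cyclic loess, 1.08 and 1.05 with normexp and quantile normalization, 1.09 and 1.08 in the authors' deposited table, and 0.59 and 0.63 both with the scan as a block and within the first scan. The cause was not tested, except that the scan settings rest on 1 control. The median of all probes was 0.05, and 0.31, -0.15 and 0.19 without centring, with median centring and with the percentile over probes detected on all arrays.

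Relative to the other catalogue probes, the values that moved were 0.34 and 0.32 with quantile normalization and 0.34 and 0.34 with normexp. They were 0.47 and 0.45 with normexp and quantile normalization. For Ndfip2 they were also 0.29 with cyclic loess and 0.29 in the authors' deposited table. For Ndfip1 those settings gave 0.31 and 0.30, a move within its wider SD of 0.16. Leaving out 1 array gave 0.04 to 0.23 for Ndfip1, 0.10 to 0.21 for Ndfip2 and -0.03 to 0.06 for the gap between them. The difference of that gap was 0.0043 and ranged from -0.05 to 0.05 over the other settings.

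Of the 2 adaptors, 0 were called higher with median centring or with the scan as a block, and 0 to 2 when 1 array was left out. Over all 23090 probes, 298 were called higher with median centring, 0 with the scan as a block, and 25 to 2134 when 1 array was left out. The 14 other catalogue probes called higher became 5 with median centring, 0 with the scan as a block (limma, 12 at an unadjusted p below 0.05), 1 within the first scan, and 0 to 16 when 1 array was left out. The array whose loss left 0 was DEHP 2 (limma, with 17 at p below 0.05 before adjustment), and 1 probe was left on removal of either control 3 or DEHP 1.

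The labels' replicate numbers name no shared litter or day. Deviations from the group means correlated at 0.13, 0.46 and 0.08 over probes between same-numbered arrays. The highest correlations with another number were -0.03, -0.04 and 0.29 in turn. Numbers 1 and 2 thus correlated best with their own, while control 3 correlated better with another. With no shared litter or day named, the numbers were not taken as pairs. Each number holds 1 control and 1 DEHP array, so a replicate block cannot change the differences, which stayed at 0.80 and 0.81. With this block both adaptors were called, and over all probes the calls rose from 1026 to 2053 higher and from 1445 to 2412 lower.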
